A study of Mus musculus with 42 samples.

Results

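Uterine tissue-resident natural killer (trNK) cells sorted from C57BL/6 mice at gd6.5 were cultured for 3 days, and bulk RNA-Seq compared the 2 libraries cultured with IL-21 plus a STAT3 inhibitor (+ IL-21/iSTAT3) with the 2 libraries cultured without IL-21 (- IL-21). These 4 libraries, out of 42 samples in the series, were taken by their labels, and no measured value entered the choice. The + IL-21/iSTAT3 cells received 20 ng/mL recombinant murine IL-21 and 1 μM Stattic, a small molecule sold as a STAT3 inhibitor, and the study's methods print the Stattic concentration with another unit than the labels. The - IL-21 cells received neither agent. The cells of every group were the trNK-V subgroup of unaltered adult pregnant females mated with wild-type males, the methods give IL-15 in the medium of all cultures, and the labels give live NK1.1+ lymphocytes as what was isolated. A further group of 2 libraries, cultured with IL-21 alone (+ IL-21), is given beside the comparison where it shows which part of a difference was already there without the compound. No library of Stattic alone was analysed here, so an effect of the compound by itself and an effect of IL-21 that remained in its presence cannot be told apart. Nothing in the labels says whether the libraries of a group came from separate cultures or animals, so the p-values measure only the spread between these libraries, which may be technical.

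IL-21 is a cytokine of T helper cells and NKT cells that binds the IL-21 receptor together with the common gamma chain, activates JAK1 and JAK3, and signals mainly by phosphorylated STAT3, with STAT5 to a lesser degree. In NK cells it is known to raise granzymes, perforin and IFN-γ. Stattic is known as an inhibitor of the SH2 domain of STAT3, and it is a reactive compound that can also bind cysteines of other proteins. The heat shock response, in which HSF1 switches on chaperones when unfolded or modified proteins build up, and the NRF2 response, in which cysteines of KEAP1 sense electrophiles and oxidants, are the textbook programs by which cells answer damaged protein and oxidative stress.

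The 4 libraries held between 18224000 and 29537298 counts assigned to genes, and the + IL-21 libraries held 12189886 and 13484192. Levels are given as RPKM (reads per kilobase of gene, scaled to library size by the TMM factors of edgeR), and genes with more than 10 RPKM, for this filter by plain library totals without TMM factors, in both libraries of any of the 3 groups were tested. All 7 trNK markers were detected in every group. Their summed level was 4888 to 6077 RPKM in the - IL-21 libraries, 4897 to 6909 RPKM in the + IL-21 libraries and 2906 to 3427 RPKM in the + IL-21/iSTAT3 libraries. Ncr1 and Klrb1c were called lower with IL-21 and Stattic than without IL-21, but the larger part of the drop in the sum came from members not called. Of the markers of other cells, Ms4a1, Adgre1, Lyz2, S100a8, S100a9, Col1a1, Krt8 and Cdh5 had no count in any of the 6 culture libraries. Other members of those lists were detected: the macrophage, epithelial, endothelial and mast cell lists summed to 17.1 to 18.4, 28.5 to 33.4, 21.5 to 45.3 and 6.21 to 14.4 RPKM without IL-21 and to 21.9 to 22.4, 14.1 to 24.0, 21.5 to 38.6 and 5.17 to 5.27 RPKM with IL-21 and Stattic, with no member called and the tested part from Cd68, Epcam, Cdh1 and Pecam1. The 5 markers of type 1 innate lymphoid cells summed to 65.2 and 48.6 RPKM against 4.95 and 41.5 RPKM, with 1 member, Tnfsf10, called lower. The 5 markers of conventional NK cells summed to 25.7 and 26.9 RPKM without IL-21 and to 57.3 and 64.4 RPKM with IL-21 and Stattic, nearly all of it from Ly6c2. The 10 T cell markers summed to 1312 and 1213 RPKM against 674 and 721 RPKM, mostly from the Trbc1 and Trbc2 constant regions, with Cd4 and Cd5 at 0 in all 6 libraries. The part of these marker differences in the results was not tested, and in bulk samples fewer cells of a type and less RNA per cell cannot be told apart.

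Of 4159 genes tested by edgeR's quasi-likelihood test, 197 differed between + IL-21/iSTAT3 and - IL-21 at a Benjamini-Hochberg adjusted p below 0.05 and more than 2-fold, which is what "called" means throughout. With IL-21 and Stattic, 122 genes were higher (2.93% of those tested) and 75 were lower (1.8%). The median log2 difference over all 4159 genes was -0.02, and it was 2.27 over the called rises and -2.45 over the called falls. With library totals in place of TMM factors the median over all genes moved to -0.36, and the calls split into 79 higher and 160 lower, so the differences here are relative to the bulk of genes in each library. On the first principal component, with 45.2% of the variance, the + IL-21/iSTAT3 libraries lay at 38.9 and 34.7, the + IL-21 libraries at -9.10 and -8.34 and the - IL-21 libraries at -29.8 and -26.4. The count depended on the libraries: it was 37 and 45 when - IL-21 replicate 1 or 2 was left out, and 79 and 93 without + IL-21/iSTAT3 replicate 1 or 2. In the same fit, + IL-21/iSTAT3 had 75 genes higher (1.8%) and 48 lower (1.15%) than + IL-21, and + IL-21 had 12 higher (0.289%) and 0 lower (0%) than - IL-21. For the 0 lower with IL-21 alone, 129 genes were lower at an unadjusted p below 0.05 and more than 2-fold, limma-voom called 1 and DESeq2 called 59.

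**Figure D1:**
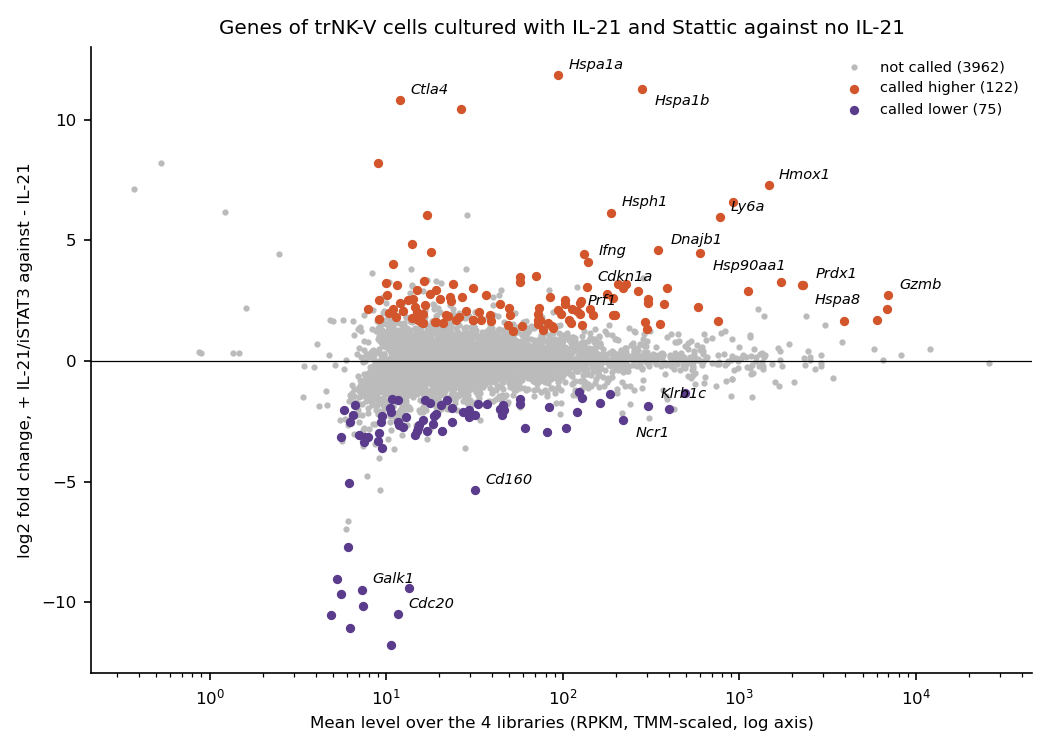
Mean level of each tested gene over the 4 libraries (RPKM, log axis) against its log2 fold change, + IL-21/iSTAT3 against - IL-21, with the 122 genes called higher in orange, the 75 called lower in purple and the rest in grey. Hspa1a, Hspa1b and Ctla4 have the highest log2 changes among the called genes, and Hmox1 and Gzmb combine a rise with a high level.

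Heat shock genes had the highest median of the 20 gene lists. Of 27 chaperone and heat shock genes on the list, 24 were tested, all 24 had both + IL-21/iSTAT3 libraries above both - IL-21 libraries (24.9% of all genes did), 19 were called higher (2.93% of all genes were) and none was called lower. Their median log2 difference was 2.78, against -0.02 over all genes. Their summed level was 1677 and 1457 RPKM without IL-21, 2042 and 1872 RPKM with IL-21 alone and 13220.0 and 13244 RPKM with IL-21 and Stattic, so the IL-21 cultures without the compound lay slightly above the untreated ones and far below those with it. Hspb1, Cryab and Hsf1 were below the level filter.

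The inducible HSP70 genes were nearly silent without the compound. Hspa1a, at chromosome 17, 34969190 to 34972156 on the minus strand of GRCm38, had 0 and 0.1003 RPKM in the - IL-21 libraries, 0.0293 and 0.417 RPKM in the + IL-21 libraries and 203 and 172 RPKM in the + IL-21/iSTAT3 libraries (11.83 ± 1.20 on the log2 scale, SE, n = 2 libraries a group, edgeR adjusted p = 0.0046). Its neighbour Hspa1b, at 34956436 to 34959238 of the same strand, had 0.339 and 0.106, 0.248 and 2.26 and 651 and 474 RPKM in the same order. In both genes the + IL-21/iSTAT3 libraries stood above the other 4, which overlapped, with only 0 and 6 reads of Hspa1a behind the untreated values and the size of the fold uncertain for that reason. The 2 genes are near-identical copies, and how the counting divided their reads between them is uncertain.

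The co-chaperones and the HSP90 machine rose with them. Hsph1, an HSP110 that exchanges the nucleotide of HSP70, stood at 5.499 and 5.01 RPKM without IL-21, at 6.97 and 6.397 RPKM with IL-21 and at 432 and 309 RPKM with IL-21 and Stattic (6.14 ± 0.36 on the log2 scale, SE, adjusted p = 0.00084 by edgeR). Against IL-21 alone Hsph1 was higher by 5.79 ± 0.36 (adjusted p = 0.0012, edgeR), while IL-21 alone differed from no IL-21 by 0.35 ± 0.29 (adjusted p = 0.82, edgeR). Dnajb1, the J-domain partner of HSP70, rose from 23.7 and 31.4 RPKM to 654 and 685 RPKM, by 4.60 ± 0.49 on the log2 scale. The constitutive HSP70, Hspa8, was already at 471 and 452 RPKM and reached 3892 and 4272 RPKM. Hsp90aa1, the inducible HSP90, went from 66.5 and 36.4 RPKM to 904 and 1382 RPKM, and Hsp90ab1, the constitutive one, from 372 and 274 RPKM to 3378 and 2865 RPKM.

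Stip1, which hands clients from HSP70 to HSP90, Dnaja1, Cacybp, Hspa4l, Ahsa1, an activator of the HSP90 ATPase, Fkbp4, Chordc1, Bag3 and Dnajb4 were also called higher, with log2 differences of 3.04, 2.79, 2.90, 2.93, 2.21, 2.14, 2.02, 2.78 and 2.63. The mitochondrial chaperones Hspd1, Hspe1 and Hspa9 were called higher by 1.56, 3.02 and 1.66. The 5 list members that were not called were Cct5, Tcp1, Cct3, Cct2, subunits of the cytosolic TRiC ring, and Hspa4, with log2 values from 0.56 to 1.06.

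Promoter sequences of RefSeq (GRCm38.p6) are shown for chaperone genes that rose together, since HSF1 binds inverted repeats of a GAA unit called heat shock elements. The 3-unit form GAANNTTCNNGAA, searched on both strands in the window from 250 bases before to 50 after the start, occurred in 0.529% of 27025 promoters, in 3 of the 20 tested list members that had a promoter sequence (Hspe1, Hsph1 and Chordc1) and in 4 of 93 called rises. The 2-unit form GAANNTTC or TTCNNGAA, which lies inside every 3-unit match, occurred in 15.1% of all promoters and in 9 of those 20. Capitals mark the match. The Hspe1 stretch (chr1:55088034-55088101, plus strand) holds 2 overlapping 3-unit matches, between 89 and 72 bases before the start. The Hsph1 stretch (chr5:149636337-149636394, minus strand) holds a 2-unit match, and its 3-unit match lies after the start and is not shown. The Hspa1a stretch (chr17:34972228-34972285, minus strand) is letter for letter that of Hspa1b (chr17:34959310-34959367), and the full 250 bases before the starts of the 2 genes were identical at 247 positions.
Hspe1: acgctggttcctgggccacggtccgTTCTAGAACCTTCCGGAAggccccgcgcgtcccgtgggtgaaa
Hsph1: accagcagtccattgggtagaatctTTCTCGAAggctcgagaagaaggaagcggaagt
Hspa1a and Hspa1b: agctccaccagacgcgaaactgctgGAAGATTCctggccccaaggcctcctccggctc

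**Figure D2:**
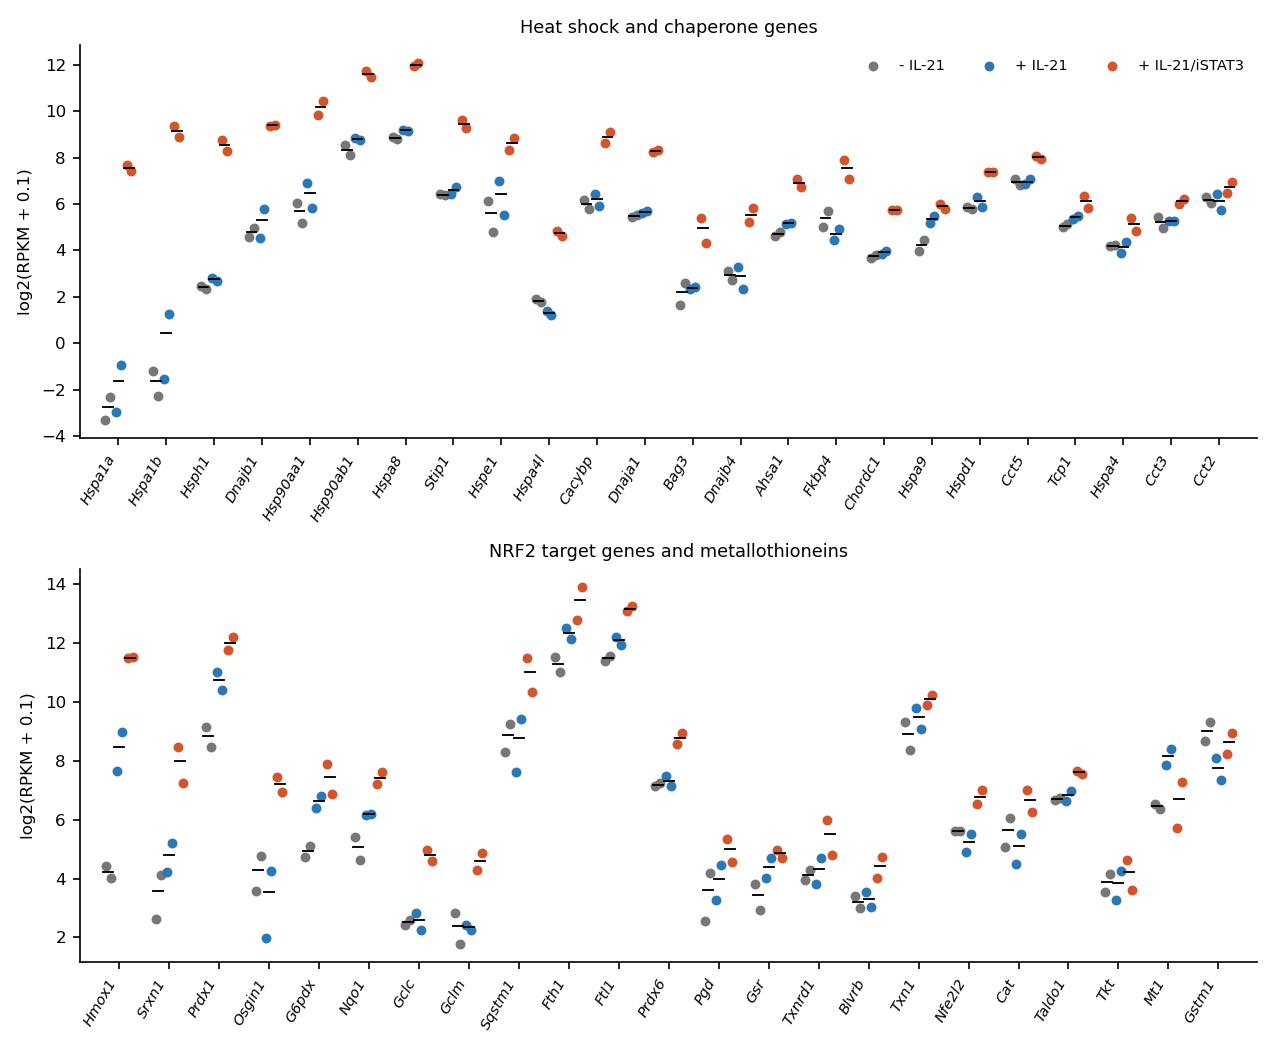
Level of every tested heat shock and chaperone gene (upper panel) and NRF2 target gene or metallothionein (lower panel) in each of the 6 culture libraries, as log2(RPKM + 0.1), with 1 point a library, a bar at the group mean, and genes ordered by log2 fold change. The orange + IL-21/iSTAT3 points lie above the grey - IL-21 points for all 24 chaperone genes, and for Hmox1 and Prdx1 the blue + IL-21 points lie between them.

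In the main fit NRF2 targets had the most calls after the chaperones, with a list median below those of the chaperones and the secreted factors. The NRF2 median was above that of the secreted factors without + IL-21/iSTAT3 replicate 2 (1.63 against 1.00) and with limma-voom (1.62 against 1.58). The same held with each other level filter: filterByExpr (1.66 against 0.51), no filter (1.65 against 0.67) and RPKM above 1 (1.67 against 1.16). It also held with the replicate number as a block in the fit (1.70 against 1.66) and with that block crossed (1.60 against 1.58). Of 32 NRF2 target genes and metallothioneins, 23 were tested, 10 were called higher (2.93% of all genes were) and none lower, with a median log2 difference of 1.60 against -0.02 over all genes, and 20 of 23 had both + IL-21/iSTAT3 libraries above both - IL-21 libraries (24.9% of all genes did). Their summed level was 8147 and 7766 RPKM without IL-21, 15163 and 12796 RPKM with IL-21, and 28366 and 37710.0 RPKM with IL-21 and Stattic. Without IL-21 and with both agents, the larger part of the sum came from the ferritin chains Fth1 and Ftl1, given below. In this sum too the + IL-21 libraries lay between the other groups, without overlap, while the median log2 difference over the list was 0.21 for IL-21 alone against no IL-21 and 1.20 for IL-21 with Stattic against IL-21.

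Hmox1, heme oxygenase 1, was at 21.3 and 16.001 RPKM in the - IL-21 libraries, 201 and 504 RPKM in the + IL-21 libraries and 2871 and 2965 RPKM in the + IL-21/iSTAT3 libraries. The 3 groups were separate, and each step was called: 4.24 ± 0.50 from no IL-21 to IL-21 (adjusted p = 0.022, edgeR), 3.05 ± 0.47 from IL-21 to IL-21 with Stattic (adjusted p = 0.022, edgeR), and 7.29 ± 0.57 over both (SE, log2, adjusted p = 0.0029, edgeR). Prdx1, a peroxiredoxin that removes peroxide, had 565 and 357, 2102 and 1361 and 3520.4 and 4709 RPKM, a rise of 3.16 ± 0.41 with an edgeR adjusted p of 0.0085 over untreated cells. For Prdx1 the step from IL-21 to IL-21 with Stattic was 1.25 ± 0.38 and did not pass (edgeR adjusted p = 0.14).

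Srxn1, which repairs overoxidised peroxiredoxins, had 6.005 and 17.4 RPKM without IL-21 and 355 and 152 RPKM with IL-21 and Stattic, and was also called against IL-21 alone (3.19 ± 0.66 on the log2 scale, edgeR adjusted p = 0.049). The genes of glutathione synthesis, Gclc and Gclm, rose from 5.23 and 5.99 to 31.3 and 23.9 RPKM and from 6.99 and 3.31 to 19.3 and 29.1 RPKM, with IL-21 alone at 7.06 and 4.701 and 5.27 and 4.67 RPKM. Nqo1, a quinone reductase, G6pdx, the NADPH-producing entry of the pentose phosphate pathway, and Prdx6 were called higher by 2.35, 2.54 and 1.60. G6pdx had 26.8 and 34.2 RPKM untreated, 84.6 and 112 RPKM with IL-21 and 237 and 117 RPKM with both. Neither of its steps passed (1.69 to IL-21 and 0.85 from there, edgeR adjusted p = 0.14 and 0.29). Prdx6 had 179 and 143 RPKM with IL-21, and its step to IL-21 with Stattic was called (1.45, edgeR adjusted p = 0.047). The ferritin chains Fth1 and Ftl1, which store iron, reached 7139.9 and 15348 RPKM and 8702 and 9854 RPKM from 2957 and 2105 and 2667 and 3062 RPKM. Not called were the metallothionein Mt1 (0.26), Gstm1 (-0.39), Tkt (0.33), Txnrd1 (1.41), Osgin1 (2.93) and Sqstm1 (2.16) among 13 members.

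The antioxidant response element bound by NRF2 was searched as TGACNNNGC on both strands. It occurred in 12.5% of 27025 promoters, in 15.8% of the 3133 tested genes with a promoter sequence and in 18 of 93 called rises (19.4%). Of 19 tested list members with a promoter sequence 5 held it (Nfe2l2, Srxn1, Gclm, Prdx1 and G6pdx), and 3 of 20 on the chaperone list did. A STAT site, TTCNNNGAA, searched in the same way, occurred in 7.44% of the tested genes and in 7 of 93 called rises (7.53%). It occurred in 2 of 14 tested IL-21 and STAT3 target genes. The stretches of Gclm (chr3:122245398-122245456, plus strand) and Prdx1 (chr4:116685441-116685499, plus strand) are shown because both hold the match ahead of the start, at 134 to 126 and 133 to 125 bases before it. Here too capitals mark the match, on the opposite strand in both.
Gclm: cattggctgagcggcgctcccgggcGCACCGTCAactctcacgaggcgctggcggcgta
Prdx1: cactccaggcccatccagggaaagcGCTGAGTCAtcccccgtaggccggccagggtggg

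Of 42 genes of the amino acid response and of endoplasmic reticulum (ER) stress, 30 were tested, 5 were called higher (2.93% of all genes were) and none lower, and the median log2 difference was 1.04, with 27 of 30 above 0 (48.6% of all genes were). IL-21 alone had a median of 1.00 over no IL-21 (-0.02 over all genes), with 29 of 30 above 0. None was called in that comparison, where 0.289% of all genes were called higher and 0% lower. Both comparisons use the same - IL-21 libraries, so low or high values there move both medians together. IL-21 with Stattic had a median of -0.17 against IL-21 alone (-0.03 over all genes), with 13 of 30 above 0 and 2 called higher (1.8% of all genes were). The 5 members called higher with IL-21 and Stattic than without IL-21 were Atf3, Ppp1r15a, Ddit3, Slc3a2 and Atf4. Ppp1r15a, the GADD34 phosphatase subunit that ends the translation block, had 12.3 and 9.03 RPKM without IL-21, 17.9 and 15.9 RPKM with IL-21 and 120.3 and 86.4 RPKM with IL-21 and Stattic (3.27 ± 0.36, SE, log2, edgeR adjusted p = 0.0056). Ddit3, which encodes CHOP, had 63.3 and 45.9, 88.6 and 75.96 and 254 and 411 RPKM in that order. For both genes the + IL-21/iSTAT3 libraries stood above the other 4. Atf3 rose from 0.994 and 0.02302 RPKM to 25.03 and 42.1 RPKM, and Atf4, the transcription factor of the response, from 38.1 and 32.3 to 137 and 91.1 RPKM with 60.98 and 94.9 RPKM under IL-21 alone. The ER chaperone Hspa5 (BiP) was at 93.4 and 82.01, 204 and 329.9 and 221 and 172 RPKM and was not called (1.17 ± 0.33, edgeR adjusted p = 0.093), nor were Asns (2.03) and Xbp1 (0.77).

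Several effector genes of NK cells were higher than in untreated cells. Of 28 genes of cytolytic granules and death ligands, 21 were tested, 3 were called higher (Gzmb, Prf1 and Ctsc) and 1 lower (Tnfsf10), against 2.93% and 1.8% of all genes. Gzmb, the apoptosis-inducing granule protease, was at 2114 and 1587 RPKM in the - IL-21 libraries, 21447 and 26639 RPKM in the + IL-21 libraries and 12413 and 11920.0 RPKM in the + IL-21/iSTAT3 libraries. It was 2.72 ± 0.34 above untreated cells (SE, log2, edgeR adjusted p = 0.0076), and its difference from IL-21 alone was -0.98 ± 0.32 (edgeR adjusted p = 0.15), which did not pass. Prf1, the pore-forming perforin, lay between: 40.9 and 52.3 RPKM, 553 and 1020.0 RPKM and 236 and 154 RPKM. It was called higher than untreated cells (2.07 ± 0.40, edgeR adjusted p = 0.031) and called lower than with IL-21 alone (-2.01 ± 0.40, edgeR adjusted p = 0.045).

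Gzma, the granule tryptase, did not pass in any of the 3 comparisons, with 282 and 1001 RPKM in the 2 untreated libraries, which lay far apart, 5122 and 2829 RPKM with IL-21 and 1146 and 1236 RPKM with IL-21 and Stattic. Gzmc had 1039 and 998, 4971 and 4116 and 1797 and 5704 RPKM (1.88 ± 0.51, edgeR adjusted p = 0.082). Ctsc, the cathepsin that cuts granzymes into their active form, showed a pattern without an IL-21 step, at 65.7 and 96.3, 75.9 and 91.3 and 391 and 218 RPKM. The death ligand Tnfsf10 (TRAIL) fell from 12.7 and 12.5 RPKM to 0.846 and 2.21 RPKM, with 16.5 and 8.72 RPKM under IL-21 alone (-3.05 ± 0.59 against untreated, -3.05 ± 0.59 against IL-21, edgeR adjusted p = 0.031 and 0.044).

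Among 30 secreted and membrane-bound factors, 15 were tested, 4 were called higher and 1 lower, against 2.93% and 1.8% of all genes, and the median log2 difference was 1.70. The median was 1.00 without + IL-21/iSTAT3 replicate 2 and 0.51 with filterByExpr, a count filter of edgeR that lets 24 of the genes through. Ifng rose from 10.7 and 19.95 RPKM to 192 and 337 RPKM (4.11 ± 0.46, SE, log2, edgeR adjusted p = 0.0058), and the + IL-21 libraries had 374 and 356 RPKM, with no called difference between IL-21 with and without the compound (-0.47 ± 0.41, edgeR adjusted p = 0.6). The chemokine Ccl4 was called higher on widely spread values, 136 and 3523 RPKM with IL-21 and Stattic against 27.5 and 11.1 RPKM, and its edgeR adjusted p was 0.045. The TNF family ligands Tnfsf4 (OX40L) and Tnfsf9 (4-1BBL) were at 259.8 and 172 RPKM and 49.2 and 79.3 RPKM against 37.96 and 38.9 RPKM and 14.01 and 5.42 RPKM untreated. Tnfsf4 had 98.1 and 81.04 RPKM with IL-21 alone. Neither the step to IL-21 nor the step from there passed (1.22 and 1.27, edgeR adjusted p = 0.2 and 0.095). Ltb, lymphotoxin beta, fell from 116 and 148 RPKM to 28.98 and 40.7 RPKM, and IL-21 alone had 34.4 and 46.2 RPKM. Spp1, osteopontin, was at 2042 and 1173 RPKM untreated, 33338 and 19766 RPKM with IL-21 and 3167 and 5845 RPKM with IL-21 and Stattic. The difference of Spp1 from untreated cells did not pass (1.49 ± 0.47, edgeR adjusted p = 0.12), while that from IL-21 alone did (-2.56 ± 0.48, edgeR adjusted p = 0.041). Ccl5 (0.31) and Xcl1 (-1.98) overlapped between the groups.

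**Figure D3:**
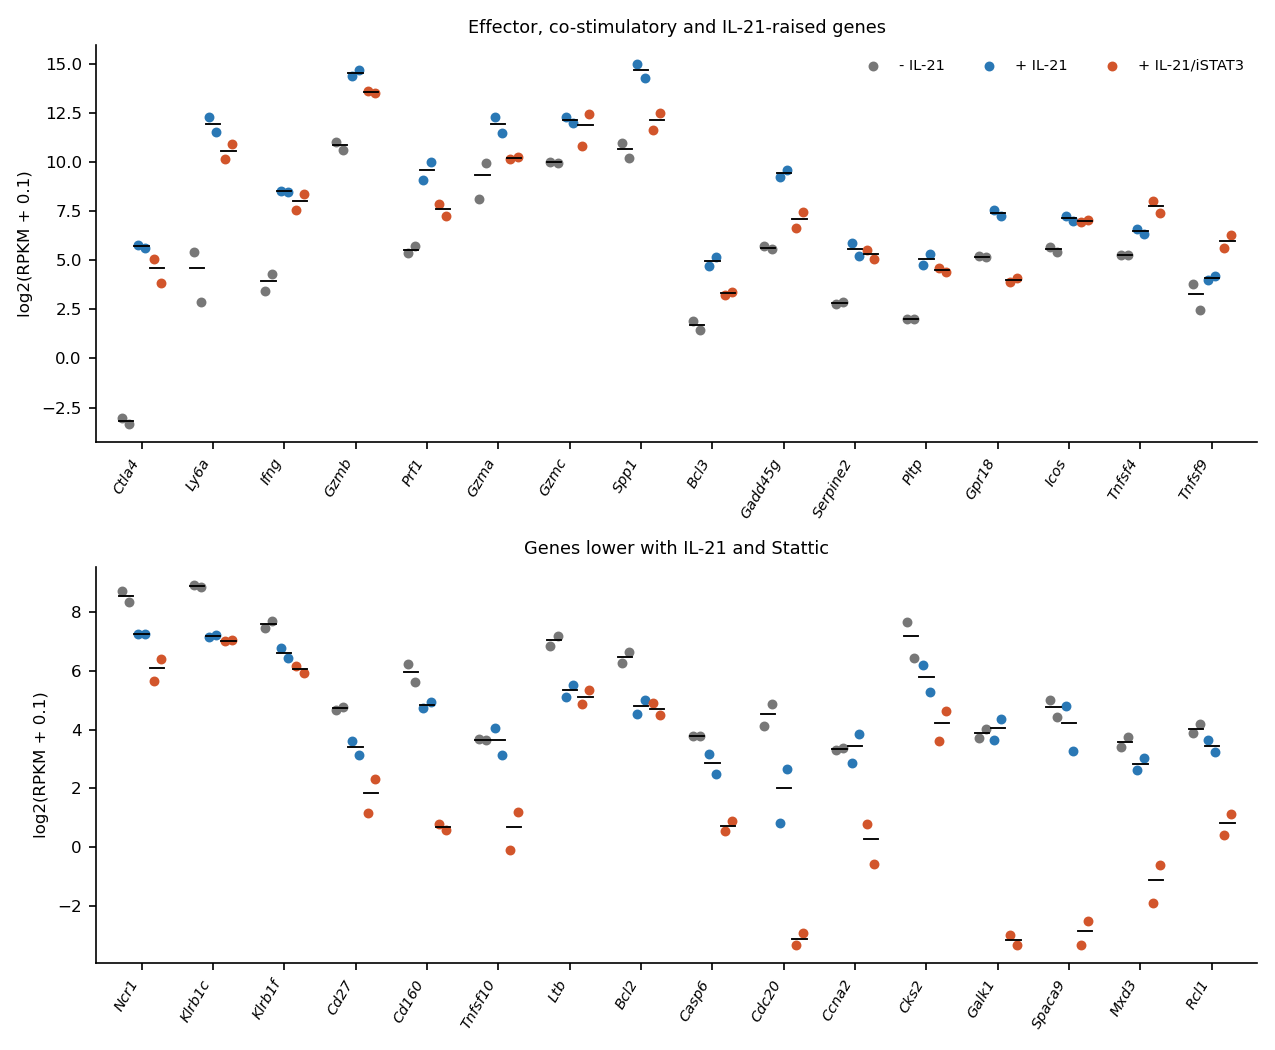
Levels in each of the 6 culture libraries, as log2(RPKM + 0.1), of effector, co-stimulatory and IL-21-raised genes (upper panel) and of genes lower with IL-21 and Stattic (lower panel), with 1 point a library and a bar at the group mean. For Prf1, Spp1 and Gadd45g the orange + IL-21/iSTAT3 points lie between the grey - IL-21 and blue + IL-21 points, and for Cd160, Cdc20 and Galk1 they lie below both.

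The 12 genes called higher with IL-21 alone are set beside the comparison here, which shares its - IL-21 libraries. Ctla4, an inhibitory receptor of the CD28 family, had 1 read in the 2 untreated libraries together, 55.6 and 48.8 RPKM with IL-21 and 33.8 and 14.1 RPKM with IL-21 and Stattic. Its ratio to untreated cells was 2503 with a 95% counting interval from 449 to 98891, which covers counting error only. Ly6a (Sca-1), an interferon-responsive surface antigen, had 42.3 and 7.12 RPKM, 4998 and 2932 RPKM and 1133 and 1938 RPKM in the 3 groups, and Serpine2, a protease inhibitor, and Pltp, a phospholipid transfer protein, had 46.04 and 33.1 RPKM and 24.5 and 21.03 RPKM with IL-21 and Stattic against 58.5 and 36.8 RPKM and 27.3 and 39.6 RPKM with IL-21. The values of Hmox1, Ifng, Gzmb, Prf1 and Spp1 stand above and those of Bcl3 below. Gadd45g, a growth arrest gene, went from 52.7 and 47.3 RPKM to 612 and 766 RPKM with IL-21 and to 98.7 and 174 RPKM with both (1.45 ± 0.36 against untreated cells, edgeR adjusted p = 0.065, and -2.34 ± 0.37 against IL-21, edgeR adjusted p = 0.022). Gpr18, a G protein-coupled receptor of lymphocytes, was at 37.2 and 35.6, 189 and 152 and 14.8 and 17.3 RPKM, lower with both agents than with IL-21 by an edgeR adjusted p of 0.0065.

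Of 24 known IL-21 and STAT3 target genes, 16 were tested and 1, Gzmb, was called higher (2.93% of all genes were), with a median log2 difference of 1.09 and 11 of 16 above 0 (48.6% of all genes were). Bcl3, a nuclear IκB protein and a classical STAT3 target, had 3.67 and 2.62 RPKM, 25.8 and 35.7 RPKM and 9.43 and 10.3 RPKM in the order untreated, IL-21, and IL-21 with Stattic (1.64 ± 0.43, edgeR adjusted p = 0.077). Batf, an AP-1 factor, had 31.9 and 51.8, 85.9 and 81.8 and 125 and 103 RPKM. Il10 was listed at 0 in both untreated libraries, at 111 and 77.6 RPKM with IL-21 and at 0 and 1.49 RPKM with IL-21 and Stattic. Tnfrsf9 (4-1BB) was at 257 and 191, 602 and 367 and 110.4 and 168 RPKM, below untreated in both + IL-21/iSTAT3 libraries without passing (-0.69 ± 0.37, edgeR adjusted p = 0.32). Stat3 itself had 8.89 and 24.3, 20.4 and 34.9 and 47.3 and 31.02 RPKM (1.24 ± 0.52, edgeR adjusted p = 0.21), and the receptor gene Il21r 16.03 and 8.35, 35.8 and 62.03 and 15.3 and 3.91 RPKM, where the + IL-21/iSTAT3 and untreated libraries overlapped and both IL-21 libraries lay above them. Socs3 was below the level filter. The phosphorylation of STAT3 was not measured in these libraries.

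Of 33 genes of cytokine receptors, JAKs and STATs, 20 were tested and 1 was called higher (2.93% of all genes were). This was the TGF-β receptor chain Tgfbr1, which rose from 12.9 and 10.8 RPKM to 37.03 and 38.8 RPKM. Il2rg, the common gamma chain, was not called (0.43). None of 14 tested transcription factors of NK cells was called, where 2.93% of all genes were called higher and 1.8% lower. Among them were Eomes at 49.5 and 61.3 RPKM against 55.7 and 24.4 RPKM, Tbx21 (0.05), Tcf7 (0.16) and Prdm1 (1.66).

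NK receptors and surface molecules moved in both directions: of 51 on the list, 43 were tested, 3 were called higher (Ctla4, Havcr2 and Icos) and 5 lower (Cd160, Cd27, Ncr1, Klrb1c and Klrb1f), against 2.93% and 1.8% of all genes. The median log2 difference was -0.35, and it was near 0 (-0.003) without + IL-21/iSTAT3 replicate 1. Cd160, a receptor for HVEM and MHC class I, fell from 75.5 and 48.8 RPKM to 1.62 and 1.41 RPKM, and the + IL-21 libraries had 26.5 and 30.4 RPKM. Both differences of the + IL-21/iSTAT3 libraries were called (-5.35 ± 0.43 against untreated and -4.23 ± 0.41 against IL-21, edgeR adjusted p = 0.0029 and 0.0065). Ncr1, which encodes the activating receptor NKp46, was at 420.5 and 324, 155 and 153 and 50.9 and 85.1 RPKM (-2.45 ± 0.36 against untreated, edgeR adjusted p = 0.012). Klrb1c, which encodes NK1.1, the antigen used in the sort of every group, was at 491 and 460.1 RPKM untreated and close together in the other groups, at 142 and 151 RPKM with IL-21 and 129 and 133 RPKM with IL-21 and Stattic.

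Its paralog Klrb1f fell by less, to 72.3 and 61.1 RPKM from 174 and 210.1 RPKM. Cd27, a TNF receptor of immature NK cells, fell from 25.3 and 27.5 RPKM to 2.12 and 4.92 RPKM. Havcr2, the inhibitory receptor TIM-3, had 0.0524 and 0.0182 RPKM untreated and 45.4 and 60.7 RPKM with IL-21 and Stattic, and the 2 IL-21 libraries disagreed, at 12.99 and 0.857 RPKM. The co-stimulator Icos was at 123 and 131 RPKM against 51.6 and 42.6 RPKM, close to the 151 and 130.4 RPKM of IL-21 alone. Cd55 (0.18), Klrg1 (-0.83) and the residency integrin Itga1 (-0.66) were not called.

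The mitosis genes that passed the test were lower. Of 50 mitosis genes, 21 were tested, 3 were called lower (1.8% of all genes were) and none higher, with a median log2 difference of -1.39, and 17 of 21 had both + IL-21/iSTAT3 libraries below both - IL-21 libraries (26.1% of all genes did). Members such as Cdc20 passed the level filter only through the - IL-21 libraries, which favours falls in these counts. With filterByExpr 0 of 50 were called, with RPKM above 1 it was 1 of 49, and with no filter 11 of 50. The medians there were -1.32, -1.35 and -1.33. Cdc20, the activator of the anaphase-promoting complex, had 17.3 and 29.1 RPKM untreated, 1.67 and 6.28 RPKM with IL-21, and 1 read in the 2 libraries with IL-21 and Stattic together, a ratio of 1921 with a 95% counting interval from 344 to 75914. Ccna2, cyclin A2, fell from 9.83 and 10.3 RPKM to 1.65 and 0.577 RPKM with 7.19 and 14.4 RPKM under IL-21 alone, and Cks2 from 203 and 86.5 RPKM to 12.1 and 25.1 RPKM. Top2a (-1.15) and Ccnb1 (-3.01) did not pass. Of 28 tested DNA replication genes none was called, among them Pcna (-0.42), Rrm2 (-0.69) and Mcm5 (-0.71). Of all genes, 2.93% were called higher and 1.8% lower. The median of the replication list was -0.54. It was -0.78 and -0.21 without + IL-21/iSTAT3 replicate 1 or 2, and -0.88 with library totals. Cdkn1a, the p21 inhibitor of cyclin-dependent kinases, rose from 34.4 and 24.8 RPKM to 243 and 249.9 RPKM, with 91.4 and 74.5 RPKM under IL-21 alone (3.06 ± 0.32 against untreated, edgeR adjusted p = 0.0046). Cdkn2b, the p15 inhibitor, had 0.548 and 1.36, 5.68 and 10.4 and 33.9 and 20.3 RPKM and was called higher.

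Of 35 genes of the BCL2 family and of apoptosis, 18 were tested, with 3 called higher (Cdkn1a, Gadd45b and Cflar) and 2 lower (Bcl2 and Casp6), against 2.93% and 1.8% of all genes. Bcl2, which protects from mitochondrial apoptosis, fell from 77.6 and 99.7 RPKM to 29.7 and 22.4 RPKM and was at 23.1 and 32.3 RPKM with IL-21. Casp6 fell from 13.8 and 13.6 RPKM to 1.36 and 1.77 RPKM. Cflar rose from 3.29 and 5.21 RPKM to 15.4 and 12.6 RPKM, with 10.25 and 10.21 RPKM under IL-21 alone. Mcl1 (-0.38) and Bcl2l11 (0.32) were not called. Among 35 NF-κB, AP-1 and immediate early genes, 21 were tested. Ier3 was called higher (2.55) and the phosphatase gene Dusp2 lower (-3.61), against 2.93% and 1.8% of all genes. Nfkbia was not called (-0.54).

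Of 11 tested genes of lipid synthesis 2 were called higher (2.93% of all genes were), among them Cyp51, a demethylase of sterol synthesis, which rose from 2.68 and 2.55 RPKM to 18.3 and 16.7 RPKM and was at 11.1 and 20.4 RPKM under IL-21 alone. P4ha1, a collagen prolyl hydroxylase under hypoxia control, rose from 5.42 and 3.94 RPKM to 47.01 and 39.3 RPKM. It was the only call among 16 tested glycolysis and hypoxia genes (2.93% of all genes were called higher). Aldoa (0.74), Pgk1 (0.20) and Ldha (-0.14) were not called. None of 75 tested ribosomal protein genes (median -0.01), 74 respiratory chain genes (median -0.05), 20 genes of ribosome biogenesis and Myc (median -0.42) or 21 genes of MHC class I and antigen processing (median 0.17) was called. Of all genes, 2.93% were called higher and 1.8% lower. Of 29 tested interferon-stimulated genes 1, Ly6a, was called higher (2.93% of all genes were). The median of that list was -0.20, with Irf1 (0.22), Gbp2 (-0.00) and Ifitm2 (-0.82) not called. With library totals the medians of the cytokine receptor, NK transcription factor, MHC class I, glycolysis and BCL2 family lists turned negative (-0.16, -0.24, -0.18, -0.12 and -0.09), while those of the chaperone and NRF2 lists stayed at 2.45 and 1.25. Leaving out 1 library also turned medians near 0. Without - IL-21 replicate 1 those of NK transcription factors and MHC class I were -0.14 and -0.09, and those of ribosomal proteins, the respiratory chain and ribosome biogenesis were 0.31, 0.27 and 0.04. Without + IL-21/iSTAT3 replicate 1 those of MHC class I and cytokine receptors were -0.22 and -0.03, and those of ribosomal proteins and the respiratory chain were 0.24 and 0.22. Without + IL-21 replicate 1 that of ribosomal proteins was 0.03.

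**Figure D4:**
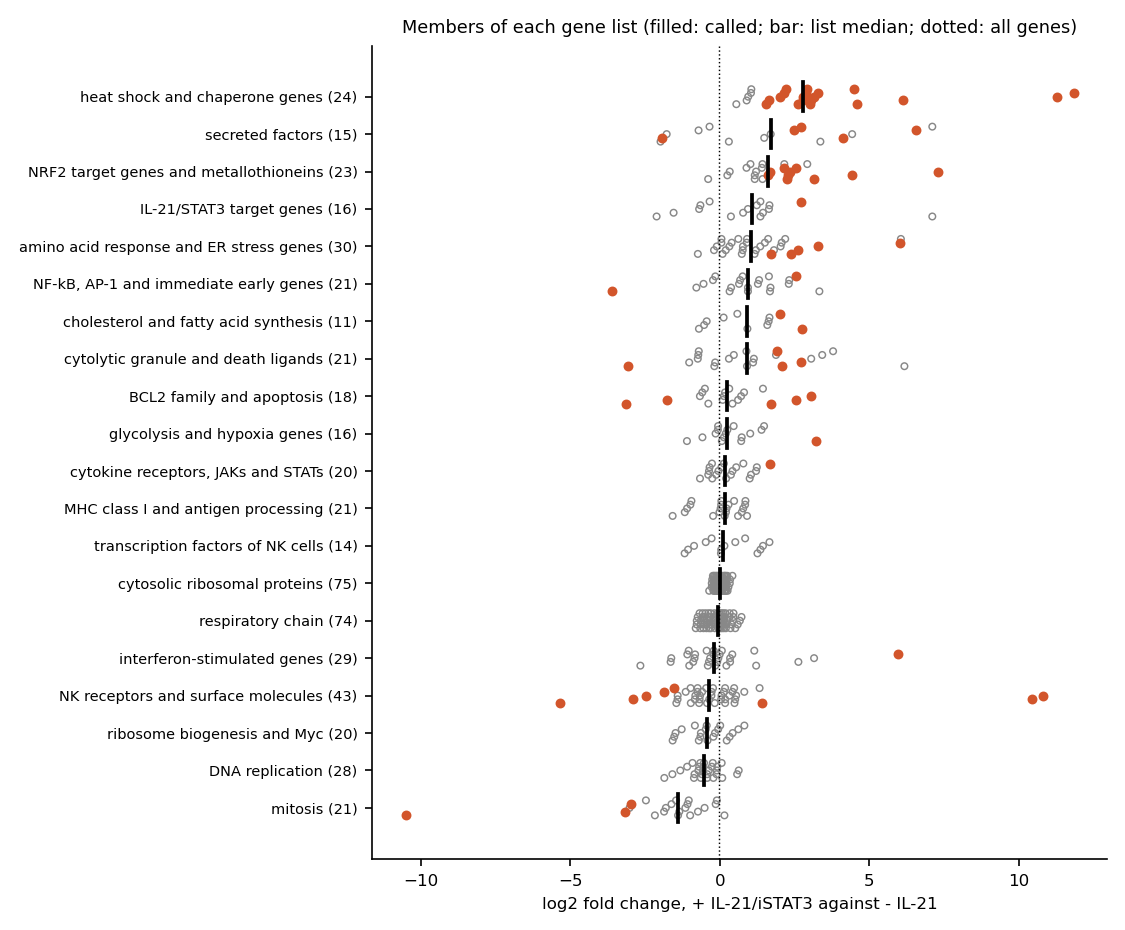
log2 fold change, + IL-21/iSTAT3 against - IL-21, of every tested member of the 20 gene lists, ordered by list median (black bar), with called members filled, the number tested in brackets and a dotted line at the median of all genes. The chaperone list lies wholly to the right of 0, the mitosis list mostly to the left, and the ribosomal protein and respiratory chain lists close to 0.

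Among the 15 largest falls, 6 genes had no read in either + IL-21/iSTAT3 library, Fam213b and 5 unnamed models. Galk1, the galactokinase of galactose breakdown, had 12.9 and 16.2 RPKM untreated, 12.5 and 20.5 RPKM with IL-21 and 1 read with IL-21 and Stattic, a ratio of 911 with a 95% counting interval from 163 to 36013. Spaca9 had 32.4 and 21.5 RPKM and 27.8 and 9.66 RPKM in the groups without Stattic, and also 1 read with it (ratio 901, interval from 161 to 35629). Fam213b, a prostamide and prostaglandin F synthase, had 9.49 and 10.1 RPKM untreated and no read with IL-21 and Stattic, which is at least 71.1-fold lower at a floor of 3 counts per library. C1qtnf12, a C1q and TNF related secreted protein, had 3 reads with both agents against 11.6 and 12.7 RPKM (ratio 246, interval from 83.9 to 1197). Mxd3, a MAX dimerization partner, fell from 10.5 and 13.4 RPKM to 0.171 and 0.558 RPKM, and Rcl1, of ribosomal RNA processing, from 14.6 and 18.1 RPKM to 1.25 and 2.07 RPKM. The rest of the 15 were Cd160, Cdc20 and Dusp2, given above, and 6 unnamed gene models. The remaining large rises were Clec4e, a C-type lectin receptor for mycobacterial glycolipid, at 2.28 and 0.699 RPKM untreated, 33.998 and 18.8 RPKM with IL-21 and 23.1 and 45.4 RPKM with both, and 1 unnamed model.

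A separate set of 4 libraries of uterine trNK cells, cultured for 72 h in 10 ng/mL IL-15 with or without 20 ng/mL IL-21 and without Stattic, gives part of the same genes an IL-21 value from other libraries: 49 of the 122 called rises and 46 of the 75 called falls were tested there. Of these, 30 of 49 rises and 25 of 46 falls were higher with IL-21, against 54.2% of the genes tested in both. Of 2468 genes tested there, edgeR called 0 higher (0%) and 0 lower (0%), with 176 at an unadjusted p below 0.05 and more than 2-fold, 9 called by limma-voom and 39 by DESeq2. Hspa1a and Hspa1b had no read in any of those 4 libraries, and Hsph1 had 2.13 and 0.185 RPKM without and 0.768 and 0.558 RPKM with IL-21. Hmox1 had a read in 1 of the 4. Gzmb was at 939 and 545 RPKM without and 4039.5 and 2016 RPKM with IL-21 (2.03 ± 0.49, SE, log2, edgeR adjusted p = 0.47), and Ly6a at 9.86 and 0 RPKM and 742 and 901 RPKM. The share of mitochondrial counts was 4.37% to 11.8% in those libraries and 0.861% to 1.89% in the culture libraries, and its part in the differences between the sets was not tested.

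Of the genes taken by the naming rule, 81 were called in the comparison of + IL-21/iSTAT3 with - IL-21, and 16 of them stayed called under each of 16 other settings of the fit, including the loss of any of the 6 libraries. These were Hspa1a, Hspa1b, Hsph1, Hspa8, Hspa4l, Hsp90ab1, Dnajb1, Dnaja1 and Stip1 of the chaperone list, the stress genes Hmox1 and Ppp1r15a, Cdkn1a, Ifng, Ctla4, Cd160 and Galk1. The other 65 lost the call under at least 1 setting, and 30 and 31 of the 81 remained called without - IL-21 replicate 2 and 1. The chaperone list held between 9 and 21 called members over all the settings, all of them higher, the NRF2 list between 1 and 19, the amino acid and ER stress list between 1 and 13, and the mitosis list between 0 and 11.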

How the data were processed

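Bulk RNA-Seq of sorted, cultured cells was made with the SMART-Seq HT kit and paired-end Illumina sequencing, per the study's methods. The authors deposited raw counts of reads per gene for each library. The labels' processing notes name HISAT2 2.1.0, featureCounts and Subread with build mm10, while the methods name RSEM, so the counter is uncertain, and neither source says that strand was used, so overlapping and antisense genes cannot be told apart. Gene symbols came from GENCODE M21 by gene ID, for 54409 of 54446 IDs. Genes with over 10 RPKM in both libraries of any of the 3 culture groups, the filter of the methods, here on RPKM from plain library totals, were tested with edgeR 4.0.16 in R 4.3.3 (TMM, quasi-likelihood, 1 fit over the 6 libraries, no covariates), and called at a Benjamini-Hochberg adjusted p below 0.05 and more than 2-fold. RPKM printed are counts divided by length and TMM-scaled total, so a printed level can lie on the other side of 10 than the filter's. An SE is the size of the log2 fold change divided by the square root of the quasi-likelihood F statistic. It follows from the test and is no separate measure of spread. DESeq2 1.42.0 and limma-voom 3.58.1 were alternatives. The fit was tested on simulated counts with known changes, drawn from the means and dispersions of these same libraries. It recovered 66.9% of 4-fold changes, and 4.29% of its calls were false. Each count was drawn independently under the model of the fit, with no shift shared by the genes of a library. The 4.29% is therefore not an error rate of the 197 calls in the real libraries.

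Named genes were those the study names for this culture, the 15 largest called rises and falls with no overlap between groups, 4 examples of each of 20 gene lists, and list members that were called. Members, lists and tests were chosen with earlier results of these data known. Reads carried no molecular identifiers, so floors (3 counts) and 95% intervals cover counting error only. The smallest library held 12189886 counts. Beyond the 72 h libraries of the time course, samples of other experiments were not used here. A few genes that the naming rule took are not reported here.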

Additional observations from a re-analysis of the deposited data

How the results depend on the processing

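No called gene named here changed sign in any alternative, and 65 of the 81 lost the call in at least 1. The stable sign was largely set in advance, since all 197 called genes had no overlap between the groups and changes above 2-fold. Among named genes that were not called, 25 changed sign in at least 1 alternative. Library totals turned the split of the first comparison from 122 higher and 75 lower to 79 and 160. The counts are given in the order + IL-21/iSTAT3 against - IL-21 (197), + IL-21/iSTAT3 against + IL-21 (123) and + IL-21 against - IL-21 (12). They were 584, 445 and 162 with DESeq2, 21, 1 and 0 with filterByExpr in place of the RPKM filter, 652, 461 and 146 with no filter, 76, 13 and 1 with RPKM above 1, and 774, 664 and 297 with an unadjusted p. The filters also change how many genes are tested, from 4159 to 13657, 21274 and 10498, and for the rest of these changes the cause was not tested. Leaving out each library gave 37 to 207, 7 to 63 and 2 to 17. RLE size factors, limma-voom, the fit of the 4 libraries alone (205, 271 and 221 genes in the first comparison), library totals (239) and dropping the fold threshold stayed within 1.5 times of the main counts, and with library totals 154 of the 197 genes stayed called.

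Replicate numbers do not pair the samples by any label. Deviations from the group means correlated at -0.38 between - IL-21 and + IL-21/iSTAT3 libraries of the same number and at 0.54 between - IL-21 and + IL-21. Between + IL-21 and + IL-21/iSTAT3 the correlation was -0.43, so the + IL-21/iSTAT3 numbers ran opposite to those of both other groups. The replicate block gave 55, 8 and 1 calls, and the block with the + IL-21/iSTAT3 numbers crossed, chosen after seeing the data, gave 725, 614 and 225. In the 72 h time course 0 genes were called in the main fit and with the block, 9 with limma-voom and 39 with DESeq2. The alternatives for the comparisons other than the first, and library totals, were also chosen after seeing the data. With 2 libraries a group, a gene that was not called is not shown to be unchanged.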
